A study of Mus musculus with 43 samples.

Results

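The pool of T cells on the day of adoptive cell transfer (ACT), called T0, was read in 3 libraries out of the 43 samples of a multi-organ CRISPR knockout screen. The libraries were chosen by their labels alone, and 41 of the 43 samples carried values. Each T0 library held DNA from CD90.1+ OT-I cells, which are mouse CD8+ T cells whose receptor recognizes ovalbumin. All 3 shared the Cas9 knock-in (OT-I:Rosa26-Cas9), activation in culture with CD3/CD28 beads, growth in IL-2, IL-7 and IL-15, transduction with the metabolic sgRNA library and magnetic selection for CD90.1, and none had entered a mouse again. The other 38 libraries with values came from CD90.1+ OT-I cells that were recovered by sorting, 7 days past ACT, from organs of Rosa26-Cas9 mice that carried orthotopic KPC_OVA tumours, a pancreatic cancer line that expresses ovalbumin, and that received anti-PD-1 or IgG. The T0 libraries are labelled as biological replicates, but no source used here ties each of them to its own animals, so the spread between them may be partly technical. CD90.1 marks cells that took up the vector and does not show that the target gene was cut. Genomic DNA at the sgRNA holds no expression, so the cell type could not be checked against markers.

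In a pooled screen, each cell carries an sgRNA that directs Cas9 to 1 gene, and the abundance of the sgRNA in genomic DNA stands for the abundance of cells with that knockout. T0 is the reference against which later loss or gain is read. Between transduction and T0 the cells divide in culture, so knockouts of genes needed for growth can already be lost there, and sgRNAs also differ in abundance from cloning onwards. The plasmid pool and the freshly transduced cells were not analysed here, so the starting abundance of an sgRNA and its loss or gain in culture cannot be told apart. CD90.1 (Thy1.1) itself is a surface protein held by a glycosylphosphatidylinositol (GPI) anchor, and the cells were selected by it just before T0 was taken.

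The table held a signal for 10640 sgRNAs, 5 for each of 2078 genes and 250 nontargeting sgRNAs. The summed signal was 4228882, 4085227 and 2882462 in T0 replicates 1, 2 and 3, and the read depth behind it is unknown. Below, the level of an sgRNA is log2(signal + 1) minus the median of the nontargeting sgRNAs in the same library, and the level of a gene is the mean over its 5 sgRNAs, so 0 stands for the typical nontargeting control. The ratio of the 90th to the 10th percentile of the signal was 4.32 in replicate 1, 4.05 in replicate 2 and 3.95 in replicate 3. Between 77.1% and 79.4% of sgRNAs lay within 2-fold of the nontargeting median. The pool was thus even in width across the libraries, with the upper 10% of sgRNAs holding 23.9%, 23.4% and 23.2% of the signal. Targeting sgRNAs lay slightly above the controls, with a median level of 0.16, 0.12 and 0.25. Nontargeting sgRNAs were spread more widely (SD 1.10, 1.11 and 1.08) than targeting ones (0.82, 0.79 and 0.78), and 5 nearly absent controls contribute to that spread.

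**Figure D1:**
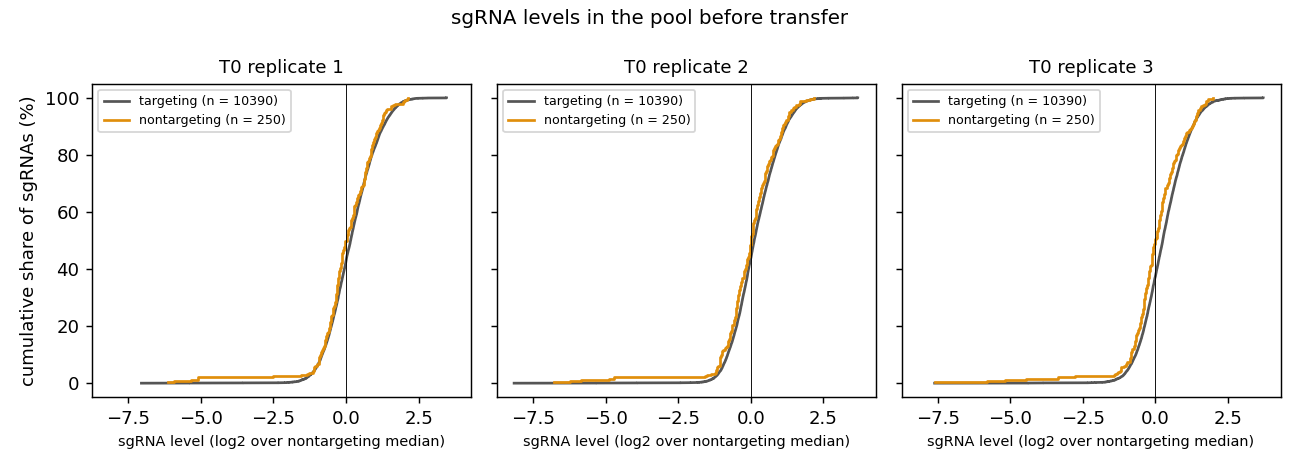
Cumulative share of sgRNAs (y axis, %) against sgRNA level (x axis, log2 over the nontargeting median) in each T0 library, for 10390 targeting and 250 nontargeting sgRNAs. The curves nearly overlap except in the lower tail, where 5 nontargeting and 11 targeting sgRNAs had a mean level under -3.

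Replicate 3 stood apart from the other libraries. Over all 10640 sgRNAs, Pearson's r was 0.83 between replicates 1 and 2, 0.71 between replicates 1 and 3 and 0.72 between replicates 2 and 3, with Spearman's rho of 0.81, 0.69 and 0.69. Over the 2078 gene means the gap was wider, with r of 0.83, 0.50 and 0.59 and rho of 0.82, 0.52 and 0.59 for the same pairs. These sgRNAs share cloning and culture history, so the values describe repeatability only. The 250 nontargeting sgRNAs showed a smaller gap, with Spearman's rho of 0.82, 0.76 and 0.75. Sets of 5 of them, taken in table order, did not show it: over 50 sets, rho was 0.87, 0.89 and 0.86. The SD of the difference between replicate 3 and the mean of replicates 1 and 2 was 0.56 over targeting and 0.49 over nontargeting sgRNAs. Of its variance over targeting sgRNAs, 20% lay between genes, against 3.36% for the difference between replicates 2 and 1, so sgRNAs of a gene tended to move together between replicate 3 and the others. The gene mean was more than 1 higher in replicate 3 for 56 genes and more than 1 lower for 1 gene, Pik3cd, and 0 of the 50 nontargeting sets exceeded 1. Between replicates 1 and 2 no gene differed that much. The part played by the sequencing run, the correction of batches or the culture was not tested, and with 1 library on that side the difference carries no p-value. Levels below are therefore given by library, and the main counts also without replicate 3.

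**Figure D2:**
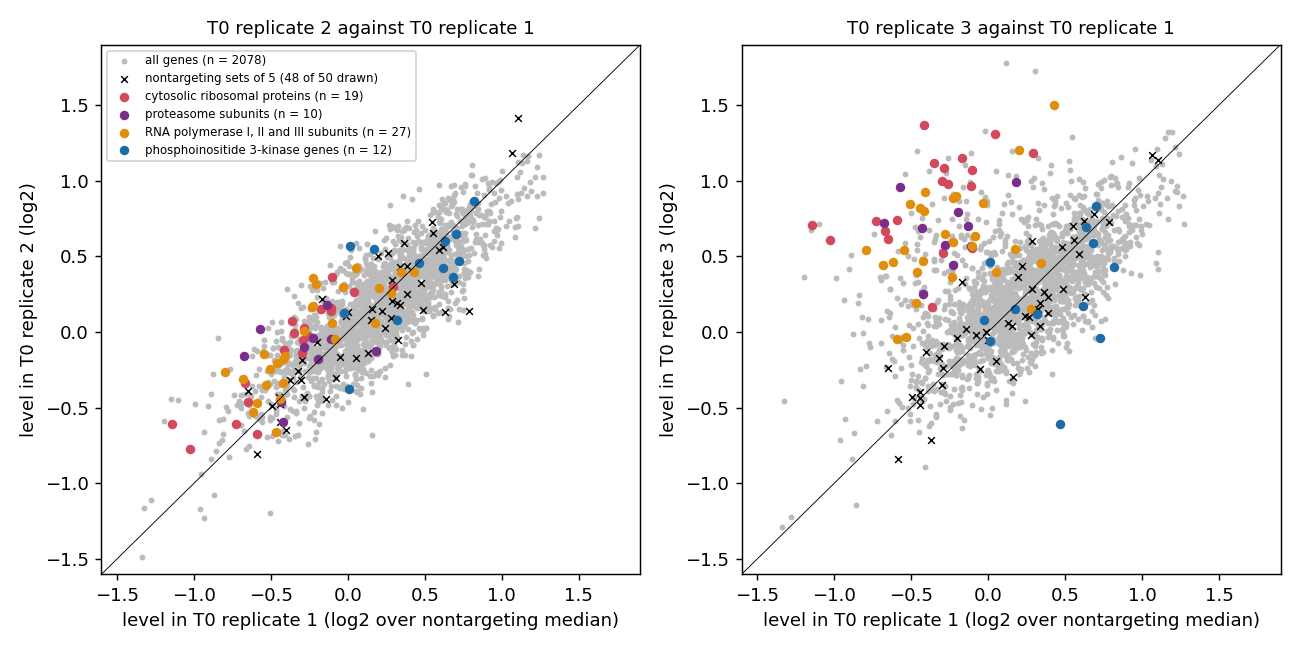
Gene level in T0 replicate 2 (left) and T0 replicate 3 (right) against T0 replicate 1, all in log2 over the nontargeting median. Grey points are genes, crosses are sets of 5 nontargeting sgRNAs (48 of 50 drawn), and coloured points are 4 gene lists. Medians of ribosomal protein genes were -0.30, -0.02 and 0.97 in replicates 1 to 3. Those of proteasome genes were -0.25, -0.11 and 0.69, and those of RNA polymerase genes -0.28, -0.05 and 0.55. They were thus higher in replicate 2 than in replicate 1, and higher again in replicate 3. The crosses follow the diagonal in both panels.

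Gene means covered a narrow range. Averaged over the 3 libraries, the 2078 gene levels had a median of 0.21 and an SD of 0.33, from -1.37 for Chpt1 to 1.22 for Mpst, with 2 genes below -1 and 19 above 1. The sgRNAs of a gene spread much more than the libraries did, with a median SD of 0.65 between the 5 sgRNAs of a gene against 0.15 between the 3 libraries. Of the variance of sgRNA levels averaged over libraries, 0.36% lay between genes and the rest between sgRNAs of the same gene. The share between genes was 4.43% in replicate 1, 1.97% in replicate 2 and 1.53% in replicate 3. Without replicate 3 it was 3.25%. For comparison, the median SD within a set of 5 nontargeting sgRNAs was 0.61. At T0, 2 sgRNAs of the same gene were thus barely more alike than 2 sgRNAs of different genes.

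Whether single knockouts were low or high depended on which error the level was set against. Against the spread between libraries (limma over 3 libraries, with the threshold at 0.05 after Benjamini-Hochberg adjustment across 2078 genes), 106 genes were low, or 5.10%, and 820 were high, or 39.5%. Of the 50 nontargeting sets, 27, or 54.0%, passed the same p, 11 of them low and 16 high, although they target nothing. The sets followed table order, in which low controls lay together, with levels of -1.70 and -4.22 in sets 48 and 50. Set levels had an SD of 0.78, against 0.33 for genes, so the share called is not a like-for-like background for genes. Without replicate 1 the test called 0 genes in either direction, and without replicate 3 it called 241 low and 903 high, while without replicate 2 the counts were 28 and 479. Against the spread between the 5 sgRNAs (limma, adjusted over 2078 genes), 0 genes were low and 0 were high, with 11 low and 204 high at an unadjusted p under 0.05. An exact Mann-Whitney test of the 5 sgRNAs against the 250 nontargeting sgRNAs likewise called 0 and 0 after adjustment, with 10 and 96 before it. The standard error of a gene level over its sgRNAs, with the variance pooled over all genes, was 0.33, as large as the SD of 0.33 between gene levels. No gene therefore passed both tests, and calls over libraries describe sgRNA abundances that repeat from library to library.

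The 8 genes with the lowest mean level each held 1 nearly absent sgRNA. These genes are named after their values were seen, since no gene passed both tests. Chpt1, which makes phosphatidylcholine from CDP-choline, had levels of -1.34, -1.49 and -1.29 in replicates 1, 2 and 3, a mean 0.387 times the nontargeting median. All 3 libraries were low and close to each other (SD 0.10). Its adjusted p was 0.055 over sgRNAs by limma, the lowest of all genes. That fit pooled the variance over all genes and did not use the SD of 2.09 between the sgRNAs of Chpt1. By the exact Mann-Whitney test the lowest adjusted p of any gene was 0.67. The Chpt1 sgRNA s_08272 had a signal of 7.45, 5.97 and 7.13, where the nontargeting median was 297, 295 and 194, and without it the gene mean was -0.45. Ltc4s, the leukotriene C4 synthase, had levels of -1.28, -1.11 and -1.22. Its sgRNA s_02116 had a signal of 3.51, 4.37 and 2.72, and the mean of the other 4 was -0.04. In Gamt, which makes creatine, the signal of s_01436 was 1.57, 4.95 and 0, and the other 4 averaged 0.51. In Slc9a5, a sodium/proton exchanger, s_09594 had a signal of 1.25, 0.039 and 2.97 while the other 4 averaged 0.55. Slc9a5, Gamt and Col4a3bp, a ceramide transfer protein, had the largest SDs between sgRNAs of all genes, at 3.36, 3.25 and 2.83. Pcyt2, Ipmk, Fbp1 and Dgkq completed the lowest 8, with means of -0.98, -0.91, -0.87 and -0.85. Without replicate 3, 6 of these 8 genes were still among the lowest 8, and Gamt (-0.82) and Dgkq (-0.86) were not.

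These gaps in the pool were set apart from the rest of the distribution and were not specific to targeting sgRNAs. A mean level under -3 was found in 16 sgRNAs, the highest of them at -3.83, and the next one up stood at -2.90. Of the 16, 11 belonged to 11 different genes, or 0.106% of targeting sgRNAs, and 5 were nontargeting, or 2.0% of controls. Beside the 8 genes above they belonged to Col4a3bp, Atic and Crygb. Their signal in T0 lay between 0 and 24.3. In the sorted libraries their median signal was at most 0.601, against 111 for the median sgRNA. Their highest signal in any of 38 sorted libraries ranged from 0.0311 to 606. For s_02116 of Ltc4s it was 0.0414, whereas s_07802 of Dgkq reached 270 and s_01243 of Fbp1 reached 233, and no sgRNA of the 16 exceeded a signal of 10 in more than 8 sorted libraries. Of the 5 nontargeting sgRNAs, 4 stood in 1 set of 5, whose mean level was -4.22.

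At the other end, 73 of 10390 targeting and 0 of 250 nontargeting sgRNAs had a mean level above 2. The share of targeting sgRNAs was so small that 0 of 250 controls does not set the 2 kinds apart. The 20 most abundant sgRNAs targeted 20 different genes, with levels from 2.31 to 3.51. The highest was s_00699 of Cox4i1, a subunit of cytochrome c oxidase, with a signal of 3283, 2997 and 2559. In the sorted libraries its median signal was 1.53, while the other 19 of the 20 had medians of 32.0 or more. The remaining sgRNAs of Cox4i1 had T0 levels of -0.31, -0.17, 0.04 and 1.33. Next came sgRNAs of Crat, Slc29a3 and Aox3, with levels of 3.40, 3.35 and 3.28, again with far lower levels in the other sgRNAs of Crat (-0.06 to 0.53) and Slc29a3 (-0.08 to 0.53).

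Among the highest gene means, none rested on a single sgRNA. Mpst, a sulfurtransferase that releases hydrogen sulfide, had levels of 1.17, 1.16 and 1.32, and its 5 sgRNAs lay between 0.63 and 1.60. Slc6a20a, a proline and amino acid transporter, followed with 1.24, 1.17 and 1.17, and its sgRNAs lay between 0.22 and 1.88. In Awat2, an acyltransferase of wax synthesis, the 5 sgRNAs lay between 0.96 and 1.38, and the libraries read 1.15, 0.95 and 1.28. In all 3 genes every library and every sgRNA lay above the nontargeting median. Over sgRNAs, limma's adjusted p was 0.13 for Mpst and Slc6a20a and 0.18 for Awat2. Vnn1, Ak3, Dgki and Atp5o were also among the highest 8, with means from 1.08 to 1.15.

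In 26 of 2078 genes all 5 sgRNAs lay below the nontargeting median, and in 132 genes none did. In the other genes 1, 2, 3 or 4 sgRNAs lay below it, in 501, 725, 500 and 194 genes. With 0.36% of the variance between genes, these counts by themselves do not set the genes apart. A random grouping of sgRNAs was not tested. Among the 50 nontargeting sets, a grouping by table order in which low controls lay together, all 5 lay below it in 4 sets and none in 2. No gene had 3 or more sgRNAs under the lower 5% point of the nontargeting sgRNAs (-0.92), and 4 genes had 3 above the upper one (1.33). Cox11, which delivers copper to cytochrome c oxidase, was the lowest of the 26, with levels of -0.95, -0.94 and -0.32 and sgRNAs from -1.43 to -0.27. Sphk2, a sphingosine kinase, had the closest sgRNAs of the leading genes, between -0.82 and -0.55, with -0.66, -0.77 and -0.52 in the libraries. Pfkp, a phosphofructokinase of glycolysis, read -0.46, -0.72 and -0.58. For Tgds the values were -0.51, -0.56 and -0.59. Ndufa5, a subunit of complex I, stood at -0.77, -0.83 and -0.07. Replicate 3 was nearest to 0 in Cox11, Ndufa5 and Sphk2, by the widest margin in Ndufa5, and not in Pfkp or Tgds. Without replicate 3, all 5 sgRNAs lay below the nontargeting median in 46 genes, 19 of them among the 26, and above it in 128.

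**Figure D3:**
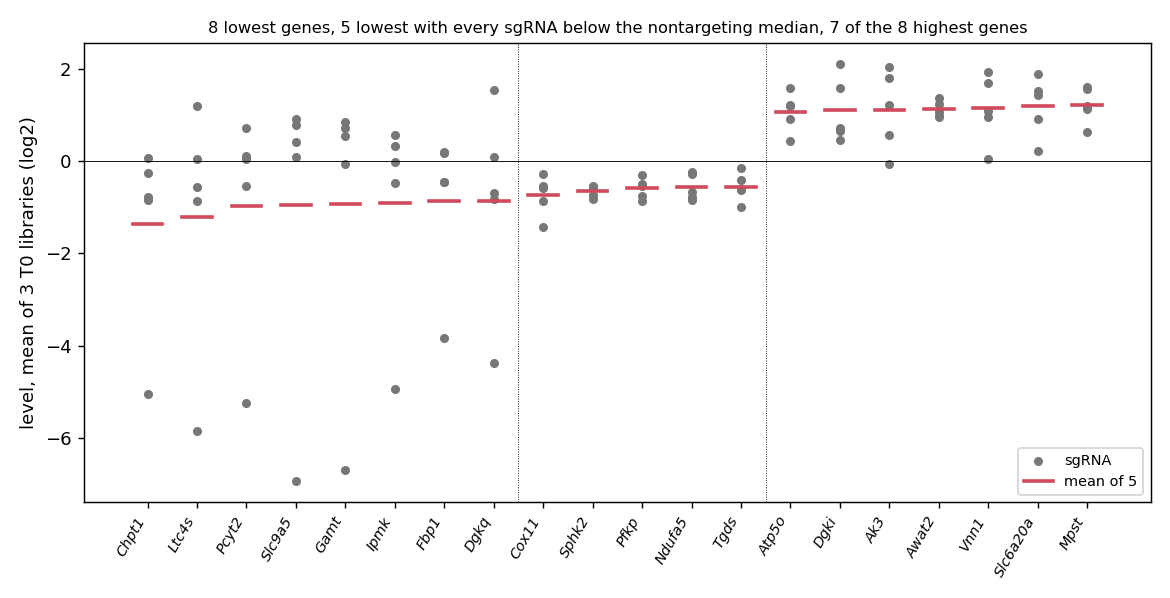
sgRNA levels (points, mean of the 3 T0 libraries, log2 over the nontargeting median) and gene means (horizontal red lines) for the 8 lowest genes, the 5 lowest genes with every sgRNA below 0, and 7 of the 8 highest genes. In each of the 8 lowest genes 1 sgRNA lies at -3.83 or below and the other 4 lie far above it, while the 5 sgRNAs of Sphk2 and of Awat2 lie close together.

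Genes of protein synthesis showed the split between libraries most clearly. The list of cytosolic ribosomal proteins held 19 genes, with a median level of -0.30 in replicate 1, -0.02 in replicate 2 and 0.97 in replicate 3, where all genes together had a median of 0.20, 0.17 and 0.26. Of the 19, 15 were below the all-gene median in replicates 1 and 2 and above it in replicate 3, a pattern found in 9.72% of all genes. Replicate 3 was the highest library in 19 of 19 genes, against 43.9% of all genes. It was also the highest in 84 of their 95 sgRNAs, against 40.8% of all targeting sgRNAs and 37.6% of nontargeting ones. The median level over the 3 libraries was 0.20, next to 0.21 for all genes, so the mean over T0 hid values on opposite sides. Rps7 and Rps13, proteins of the small subunit, were the lowest members. Rps7 read -1.03, -0.77 and 0.61, and Rps13 read -1.14, -0.60 and 0.71. Rpl35a, a large-subunit protein, was the highest member, with 0.29, 0.30 and 1.19. Rps13 had an SD of 0.95 between libraries, where the median gene had 0.15. Against the spread between all 3 libraries, 0 of the 19 genes were low and 1 was high, beside 5.10% and 39.5% of all genes. With replicate 3 left out and levels centred on all targeting sgRNAs, an alternative chosen after seeing the data, limma called 13 of 19 low and 0 high, where 19.9% of all genes were low and 27.9% high. That test rests on 2 libraries, chosen after these genes were seen to be high in replicate 3. It describes replicates 1 and 2 and gives no independent support. The counts of list members without replicate 3 given for the lists that follow come from the same test.

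**Figure D4:**
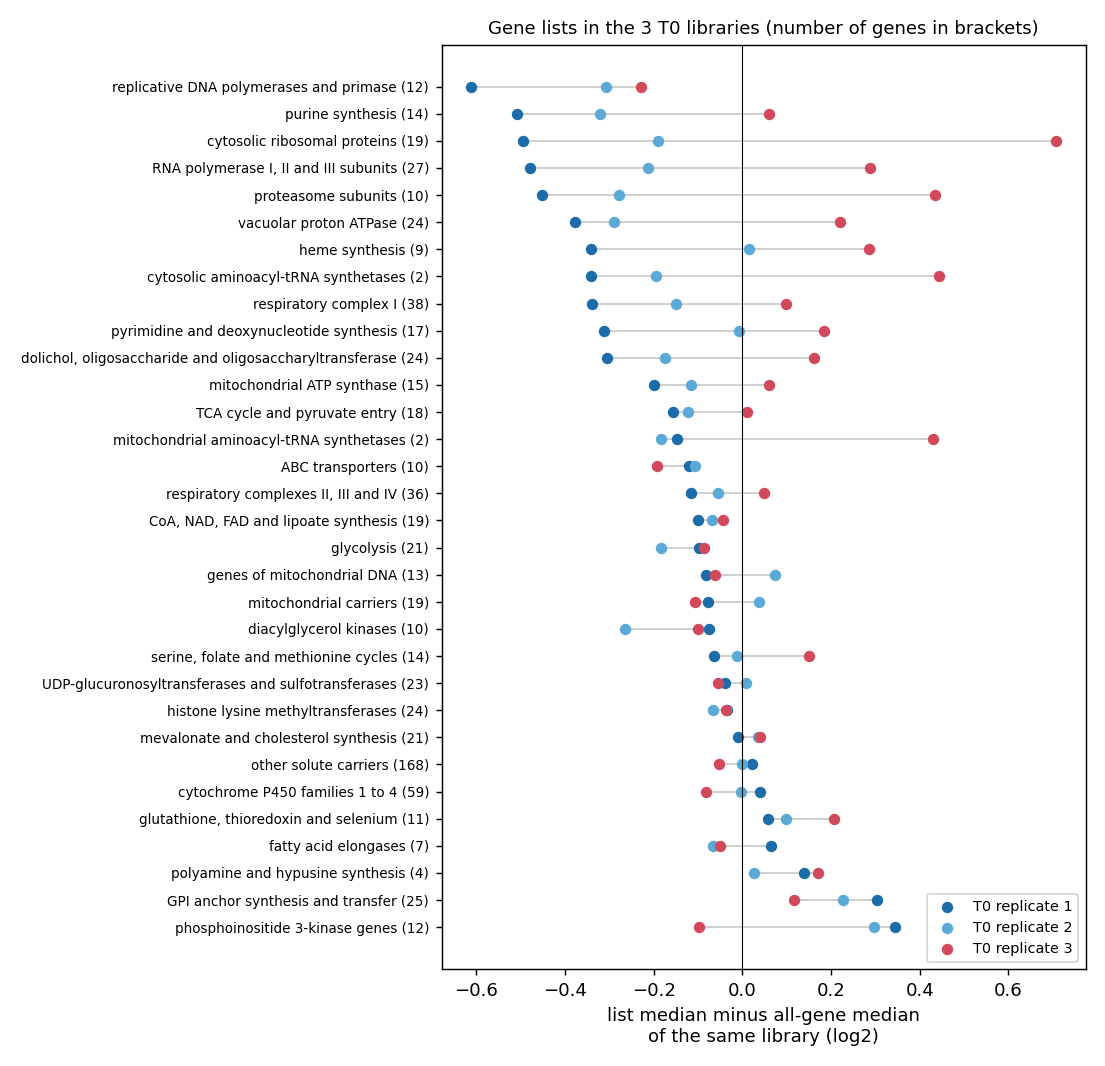
Median level of each gene list minus the median of all genes in the same library (x axis, log2), for the 3 T0 libraries, with the number of genes in brackets. Lists of ribosomal proteins, RNA polymerases, the proteasome and the vacuolar proton ATPase lie below 0 in replicates 1 and 2 and above 0 in replicate 3, and DNA polymerases lie below 0 in all 3.

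RNA polymerases, which transcribe ribosomal, messenger and transfer RNA, followed the same order. Medians of the 27 subunits were -0.28, -0.05 and 0.55 in replicates 1 to 3. Of the 27, 15 were below all genes in replicates 1 and 2 and above them in replicate 3, against 9.72% of all genes. Polr1e, of polymerase I, was the lowest member at -0.59, -0.47 and -0.05. Polr2h, shared by all polymerases, came next at -0.47, -0.66 and 0.19. Polr3e, of polymerase III, was the highest at 0.43, 0.40 and 1.5. Only Polr1e was low over all 3 libraries and 3 members were high, where all genes gave 5.10% and 39.5%. Without replicate 3 and with the other centring, 14 were low and 1 was high, against 19.9% and 27.9% of all genes. The proteasome, which degrades proteins tagged with ubiquitin, had medians of -0.25, -0.11 and 0.69 over 10 subunits, 8 of them with the pattern of the ribosomal genes. Psmc1 and Psma3 were its lowest members (-0.42, -0.59 and 0.25, and -0.43, -0.46 and 0.69), and Psmb2 its highest (0.18, -0.13 and 0.99). None of the 10 was low or high over 3 libraries, against 5.10% and 39.5% of all genes, and 7 were low and 0 high without replicate 3, against 19.9% and 27.9%. The cytosolic aminoacyl-tRNA synthetases Eprs and Mars, which charge tRNA with amino acids, read -0.47, -0.06 and 0.38, and 0.18, 0.00 and 1.03. Their mitochondrial counterparts Mars2 and Ears2 read -0.00, 0.08 and 0.53, and 0.10, -0.11 and 0.85.

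Genes of DNA replication kept the same order of libraries but stayed below all genes in replicate 3. Replicative DNA polymerases and primase, 12 genes, had medians of -0.41, -0.14 and 0.03, and 7 of the 12 were below the all-gene median in all 3 libraries, against 31.2% of all genes. Another 3 were below it in replicates 1 and 2 only, against 9.72% of all genes. Pole2, a subunit of polymerase epsilon, was the lowest at -0.70, -0.47 and -0.07. Prim1, the catalytic primase subunit, read -0.87, -0.28 and -0.01, and Pola2, of polymerase alpha, was the highest at -0.01, 0.39 and 0.73. Replicate 3 was the highest library in 10 of the 12, against 43.9% of all genes. Over 3 libraries 1 member was low and 1 was high, beside 5.10% and 39.5% of all genes, and without replicate 3 the counts were 7 and 0, beside 19.9% and 27.9%.

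Nucleotide synthesis was intermediate. Purine synthesis genes, 14 in number, had medians of -0.31, -0.15 and 0.32. Prps2, which makes phosphoribosyl pyrophosphate, was low in all libraries at -0.45, -0.25 and -0.66. Over libraries 2 members, Prps2 and Atic, were called low and 1 was high, beside 5.10% and 39.5% of all genes. Atic (-0.53, -0.70 and -0.04) carries 1 of the nearly absent sgRNAs. Adssl1 was the highest at 0.31, 0.41 and 0.30. The ribosomal pattern was found in 8 of the 14, against 9.72% of all genes, among them Gart and Paics of the de novo pathway. Gart read -0.48, -0.25 and 0.69, and Paics read -0.37, -0.12 and 0.85. Without replicate 3, 9 of the 14 were low and 0 high, where 19.9% and 27.9% of all genes were. Pyrimidine and deoxynucleotide genes, 17 in number, had medians of -0.11, 0.16 and 0.44. Their lowest members were Dut, which removes dUTP (-0.70, -0.45 and 0.37), and Rrm2, the small subunit of ribonucleotide reductase (-0.89, -0.41 and 0.51), and the highest was the kinase Nme1 (0.62, 0.48 and 0.71). In the serine, folate and methionine cycles the medians of 14 genes lay near all genes (0.13, 0.16 and 0.41), but Mat2a, which makes S-adenosylmethionine, read -1.10, -0.45 and 0.72. Mthfd1, of the cytosolic folate cycle, was the highest member at -0.02, 0.04 and 1.33. Mthfd2l read -0.24, -0.25 and 0.14. The 4 genes of polyamine and hypusine synthesis were at 0.34, 0.19 and 0.43. Over libraries 0 of them were low and 3 were high, where 5.10% and 39.5% of all genes were.

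Genes of membranes and secretion were mixed. The vacuolar proton ATPase acidifies lysosomes, and its 24 genes had medians of -0.18, -0.12 and 0.48. Its membrane subunits Atp6v0b and Atp6v0c were the lowest, at -0.66, -0.46 and 0.14, and -0.91, -0.49 and 0.41. By contrast Atp6v1g3, the highest, read 0.60, 0.75 and 0.61 with little difference between libraries. None of the 24 was low over 3 libraries and 6 were high, with 5.10% and 39.5% among all genes, and without replicate 3 the counts were 12 and 4, with 19.9% and 27.9%. Synthesis and transfer of the dolichol-linked sugar used for N-glycosylation, 24 genes, had medians of -0.11, -0.01 and 0.42. Alg13 (-0.93, -0.66 and 0.21) and Dolk, the dolichol kinase (-0.69, -0.61 and 0.08), were its lowest members and Tusc3 its highest (0.56, 0.64 and 0.76). Over 3 libraries 0 of these 24 were low and 8 were high, with 5.10% and 39.5% among all genes. Without replicate 3, 10 were low and 4 high, with 19.9% and 27.9%. Cholesterol synthesis, 21 genes, stayed close to all genes in every library (0.19, 0.20 and 0.30), with 0 low and 9 high members over libraries, near the 39.5% of all genes that were high. Within it Pmvk read -0.59, -0.55 and 0.23, and Ggps1 read -0.46, -0.15 and 0.33.

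Nuclear genes of the respiratory chain differed less between libraries than ribosomal genes at the list medians. Complex I, which oxidizes NADH, had medians of -0.14, 0.02 and 0.36 over 38 genes. Replicate 3 was the highest library in 33 of the 38, against 43.9% of all genes. Ndufs4 was low in all 3 libraries (-0.38, -0.32 and -0.62), and Ndufs6 was high (0.61, 0.88 and 0.89). Over 3 libraries 4 members were low and 9 were high, for 5.10% and 39.5% of all genes, and without replicate 3, 17 were low and 6 high, for 19.9% and 27.9%. Complexes II to IV, 36 genes, had medians of 0.08, 0.11 and 0.31, with Cox11 and Cox6a1 (-0.50, -0.48 and -0.32) lowest and Cox4i1 (0.86, 0.62 and 1.16) highest. The ATP synthase, 15 genes, ran from Atp5b (-0.81, -0.57 and -0.00) and Atp5d (-0.64, -0.75 and 0.29) to Atp5o (1.10, 0.91 and 1.21), so subunits of 1 enzyme stood on both sides of the controls. The 13 genes of mitochondrial DNA, which lies outside the nucleus, had medians of 0.12, 0.24 and 0.20, close to all genes in each library. The ribosomal pattern was in 0 of the 13, where 9.72% of all genes had it, so the count does not set the list apart. ATP8, a subunit of the ATP synthase, was the lowest at -0.25, -0.26 and -0.50, ND4 of complex I read -0.22, -0.14 and -0.20, and ND6, also of complex I, was the highest at 0.91, 0.71 and 0.70.

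Among genes of central carbon and cofactor metabolism, heme synthesis differed most between libraries. Glycolysis, 21 genes, had medians of 0.10, -0.02 and 0.17, with Pfkp and Eno2 (-0.31, -0.46 and -0.47) lowest and Gapdh (0.65, 0.89 and 0.78) highest. Aldoa, an aldolase, read 0.12, 0.29 and 1.78, the highest level of any gene in replicate 3. The TCA cycle, 18 genes, had medians of 0.04, 0.04 and 0.27, with Ogdh (-0.74, -0.42 and 0.65) lowest and Cs, the citrate synthase (0.77, 0.41 and 0.25), highest. Heme synthesis, 9 genes, had medians of -0.14, 0.18 and 0.55, from Fech, which inserts the iron (-0.52, -0.33 and 0.05), to Ppox (0.74, 0.96 and 0.68). Synthesis of CoA, NAD, FAD and lipoate, 19 genes, stood at 0.10, 0.10 and 0.22, from Rfk, the riboflavin kinase (-0.66, -0.47 and -0.23), to Nmnat3 (0.96, 0.99 and 0.71). Glutathione, thioredoxin and selenium genes, 11 in number, stood at 0.26, 0.27 and 0.47. Gclc, which starts glutathione synthesis, was their highest member at 0.82, 0.97 and 1.02.

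Genes of GPI anchor synthesis act on the class of protein to which the selection marker CD90.1 belongs. The 25 genes had medians of 0.50, 0.39 and 0.38, above the all-gene median in every library. Of the 25, 13 were above it in all 3 libraries, as were 663 of all 2078 genes. Another 6 were above it in replicates 1 and 2 and below it in replicate 3, a pattern of 9.0% of all genes. Pigh, of the first step of the pathway, was the highest at 1.03, 0.70 and 0.71, and the catalytic subunit of that step, Piga, read 0.51, 0.23 and -0.07. Pigl and Pigp, also of the early steps, read 0.90, 0.71 and 0.55, and 0.99, 0.76 and 0.38. Transfer of the anchor to protein needs Gpaa1, at 0.55, 0.79 and 0.38, and Pigk, at 0.08, 0.28 and 0.66. Pign, which adds a side group to the anchor, was the lowest member at -0.56, -0.59 and -0.03 with all 5 sgRNAs below 0, and Pigx was next at 0.12, -0.15 and -0.18. Over libraries 1 of 25 was low and 14 were high, where 39.5% of all genes and 16 of 50 nontargeting sets were high. Without replicate 3 the counts were again 1 and 14, where 19.9% and 27.9% of all genes were low and high. Over sgRNAs no member passed limma's test, with adjusted p from 0.36 for Pigh upwards. Whether selection by CD90.1 or the starting abundance bears on these levels was not tested.

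The median of the phosphoinositide 3-kinase genes was lowest in replicate 3, where that of the ribosomal genes was highest. Their 12 members had medians of 0.54, 0.46 and 0.16, and 3 were above all genes in replicates 1 and 2 and below them in replicate 3, a pattern of 9.0% of all genes. Replicate 3 was the lowest library in 5 of the 12, against 29.9% of all genes. Pik3cd, the catalytic subunit p110 delta of lymphocytes, read 0.47, 0.46 and -0.61. All 5 of its sgRNAs were lowest in replicate 3; the signal of s_02627 was 1479, 1186 and 353. Pik3r1, the regulatory partner, read 0.72, 0.47 and -0.04. Pik3c2a was high in all 3 libraries (0.70, 0.65 and 0.83), and Pik3r5 (0.01, -0.37 and -0.06) and Pik3r2 (-0.03, 0.12 and 0.08) were the members nearest or below the controls. Over libraries 0 were low and 5 were high, close to the 39.5% of all genes, and without replicate 3 the counts were 1 and 7, where all genes gave 19.9% and 27.9%.

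Several other genes named by the study differed between the T0 libraries. Rpl9, a ribosomal protein, read -0.72, -0.61 and 0.74. Each of its 5 sgRNAs was highest in replicate 3, with s_03004 at a signal of 133, 84.0 and 280. Polr1d, shared by polymerases I and III, read -0.08, -0.05 and 0.63. B3gnt2, which extends poly-N-acetyllactosamine, read 0.78, 0.74 and 0.23, with 4 of 5 sgRNAs above the controls and a level of 0.58 with an adjusted p of 0.009 over libraries and 0.55 over sgRNAs by limma. Dgkz, the diacylglycerol kinase zeta, had no steady side, with 0.24, -0.23 and -0.46. Elovl1, an elongase of very long chain fatty acids, was slightly below the controls at -0.06, -0.17 and -0.32, with an adjusted p of 0.15 over libraries by limma. For Rpl9, Polr1d, Pik3cd, Pik3r1 and Dgkz the value of replicate 3 lay on the other side of 0 from that of replicate 1.

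**Figure D5:**
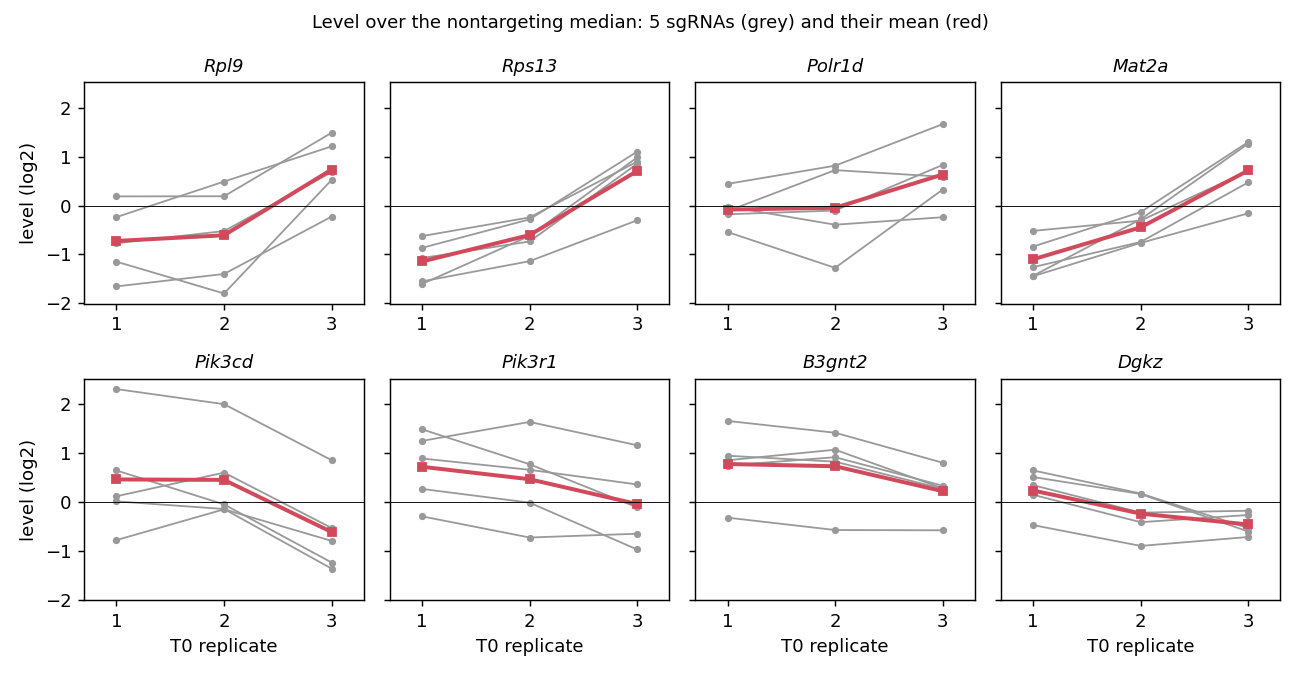
Levels (log2 over the nontargeting median) of the 5 sgRNAs (grey) and their mean (red) in the 3 T0 libraries for 8 genes. Lines join values of the same sgRNA and imply no order of the libraries. The sgRNAs of Rpl9, Rps13 and Mat2a are all highest in replicate 3, and those of Pik3cd are all lowest there.

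Diacylglycerol kinases as a list, 10 genes, had medians of 0.12, -0.10 and 0.16 and ran from Dgkq and Dgkg (-0.64, -0.42 and 0.13) to Dgki (1.14, 1.17 and 1.01). The 7 elongases stood at 0.26, 0.10 and 0.21, from Elovl5 (-0.38, -0.21 and -0.25) to Elovl3 (0.49, 0.29 and 0.47). Lists outside growth and energy metabolism gave the scale of differences between libraries. Cytochrome P450 families, 59 genes, had medians of 0.24, 0.16 and 0.18. The 168 other solute carriers had medians of 0.22, 0.17 and 0.21, and 5 of them showed the ribosomal pattern, against 9.72% of all genes. Glucuronosyltransferases and sulfotransferases, 23 genes, stood at 0.16, 0.17 and 0.21 with 0 of 23 showing it, a count that the 9.72% of all genes does not set apart. Histone lysine methyltransferases, 24 genes, stood at 0.16, 0.10 and 0.22, mitochondrial carriers at 0.12, 0.20 and 0.15, and ABC transporters at 0.08, 0.06 and 0.07. All of these lay within 0.2 of the all-gene median in each library.

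The T0 libraries were the more uniform side of the screen. The median over genes of the SD between 5 sgRNAs was 0.70 to 0.72 in the 3 T0 libraries and 1.09 to 3.58 in the 26 sorted libraries other than lymph nodes, with no overlap. The 12 lymph node libraries ranged from 0.37 to 4.36, and 4 of them were below T0. In these 4 the SD of the nontargeting sgRNAs was 2.04 to 3.33, against 1.08 to 1.11 in T0, so by that measure they were not more uniform. Over all 38 sorted libraries the mean was 2.14, against 0.71 in T0, a difference of -1.43 (two-sided exact permutation test over libraries, p = 0.040). With 1 T0 library left out, p was 0.095 in each case, and with log2(signal + 10) it was 0.087. Sorted libraries can share mice and transduced cells, so the test counts units that are not known to be independent. Ribosomal protein genes had medians from -7.41 to -5.08 in the 26 sorted libraries other than lymph nodes, against -0.30, -0.02 and 0.97 at T0. In lymph nodes the medians ran from -0.83 to 0.31. How far the nontargeting median lay above the lowest signal in lymph nodes was not examined. That range therefore does not show that these knockouts were kept there. Across the 2078 genes, the T0 level in replicate 1 correlated with the level in each of those 26 libraries at r of 0.51 to 0.64, and in replicate 2 at 0.37 to 0.48. For replicate 3, r lay between -0.14 and 0.03. The libraries share sgRNA abundances from cloning, and genes are not independent replicates, so these values are descriptions.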

How the data were processed

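Genomic DNA at the integrated sgRNA was sequenced in T0 and in sorted OT-I T cells. The authors counted reads with MAGeCK (MAGeCK-VISPR), scaled the counts by 250 nontargeting sgRNAs and removed batch effects between organs with ComBat, whose settings are not given in the sources used here. The deposited signal is therefore no count, its depth is unknown, and no counting interval is given. The authors excluded 2 samples.

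From the signal, log2(value + 1) minus the nontargeting median of the library was averaged over the 5 sgRNAs of a gene. limma 3.58.1 (R 4.3.3) tested this mean against 0 over 3 libraries, and over 5 sgRNAs, with Benjamini-Hochberg adjustment over 2078 genes, called at 0.05. The 50 nontargeting sets were fitted beside the genes. Python 3.11.15, numpy 2.4.6, pandas 2.3.3, scipy 1.17.1 and matplotlib 3.10.9 served for the rest. The fits were tested on simulated data, where the fit over libraries also called many genes given no change, and the fit over sgRNAs found nearly all of the largest changes and almost none of the smallest.

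The members and the 32 gene lists were chosen with earlier results of these data known. The rule for named genes took the 2 lowest and the highest member of a list, the genes the study names, the 3 genes with the largest SD between sgRNAs and the 3 with the largest SD between libraries, and genes called by both fits, of which there were none. Other genes were named after their values were seen. Alternatives were log2(value + 10), 2 other centrings, the lowest 10% of sgRNAs left out, eBayes with trend, the median of sgRNAs, an exact Mann-Whitney test, a permutation within replicate numbers and each T0 library left out. Some genes that the rule names are not reported here. The sgRNA sequences were not used here.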

Additional observations from a re-analysis of the deposited data

How the results depend on the processing

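Counts over libraries moved with centring and with the sgRNAs kept. Centring on the median of all targeting sgRNAs gave 260 low and 403 high genes, and leaving out the lowest 10% of sgRNAs gave 19 low. The median of the 5 sgRNAs gave 56 low and 481 high. With T0 libraries left out in turn, low genes ranged from 0 to 241 and high genes from 0 to 903. Replicate 3 left out together with centring on targeting sgRNAs gave 414 low. Over sgRNAs, low genes numbered 2 with centring on targeting sgRNAs and 1 with eBayes trend (the same counts passed both tests), and 0 to 1 with a library left out, while 69 were high over sgRNAs and by both tests without the lowest 10% of sgRNAs. The share of variance between genes ranged from -0.28% to 3.25% with a library left out. For the spread between sgRNAs, the permutation within replicate numbers (replicate block) gave the same difference of -1.43 (exact p = 0.030), log2(value + 10) gave -0.88, and libraries left out gave -1.44 to -1.43. No paired analysis was possible for the gene fits because they hold 1 group.

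Of the levels of 49 named genes, 32 of 441 alternative values changed sign. Without the lowest 10% of sgRNAs these were Atic 1.14, Col4a3bp 1.03, Crygb 1.26, Dgkq 0.81, Gamt 0.51, Ipmk 0.10, Ltc4s 0.23, Pcyt2 0.086, Rpl9 0.30 and Slc9a5 0.55, where that sgRNA was removed by construction. With the median of sgRNAs they were Atic 0.57, Col4a3bp 0.99, Crygb 0.65, Gamt 0.43, Slc9a5 0.41, Pigv -0.00041 and Pik3cd -0.24. log2(value + 10) gave Col4a3bp 0.0020. Centring on targeting sgRNAs gave Gapdh-ps15 -0.030, Pik3cd -0.071 and Polr1d -0.0065. With a T0 library left out, levels ranged from -0.80 to 0.12 for Atp6v0e, -0.23 to 0.60 for Atp6v1g1, -0.34 to 0.0029 for Dgkz, -0.32 to 0.41 for Gapdh-ps15, -0.77 to 0.13 for Mat2a, -0.077 to 0.46 for Pik3cd, -0.064 to 0.29 for Polr1d, -0.67 to 0.064 for Rpl9 and -0.87 to 0.051 for Rps13. List medians moved by more than their spread over libraries in 21 of 224 values. The difference between list and all-gene median changed sign in 30 of 224 values, over 19 of 32 lists that all lay within 0.11 of all genes. Of these, 21 came with a library left out and 9 with the median of sgRNAs. Without replicate 1 the ribosomal list went from -0.014 to 0.21, RNA polymerases from -0.091 to 0.082 and the proteasome from -0.11 to 0.051. The unknown read depth means that the counting error of an sgRNA cannot be estimated.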

Other observations

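RefSeq symbols or synonyms matched 2072 of the 2078 genes, and 15 of these are annotated as pseudogenes. The following genes were chosen after their values were seen. Gapdh-ps15, a pseudogene of the glycolytic enzyme Gapdh, had levels of -0.39, -0.25 and 1.07 in T0 replicates 1, 2 and 3, the order of the ribosomal genes. Gapdh itself read 0.65, 0.89 and 0.78, above the controls in every library. Gm4459 read -0.45, -0.35 and 0.05, and Rps3a3 read 0.42, 0.31 and 0.89. Which sites the sgRNAs of these genes match was not tested.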
